A study of Mus musculus with 2 samples.

Results

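Red cells carry on their surface a set of proteins that were first recognised as blood group antigens, and 9 mouse genes for such proteins were examined here: Rhag, Rhd, Icam4, Cd47, Slc4a1, Gypc, Ermap, Kel and Xk. They were taken by name, as a family fixed by function with no measured value in the rule, though earlier results of these data were known. All 9 were matched among the 43346 Ensembl genes listed, together with their 29 transcripts among 129984. Total RNA had been sequenced from 2 biological replicates of G1E-ER4 cells given 10 nM 17beta-estradiol for 24 h. G1E-ER4 is an immortalised mouse erythroid line, labelled male C57BL/6J, which was derived from cells without functional GATA1 and in which Gata1 was restored in a form that estradiol activates. It stands for 1 clonal line in culture. Both libraries belong to 1 group, and no untreated cells were analysed here. The values therefore describe levels and how far the replicates agreed, not a response to estradiol, and no test between conditions could be made.

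In the red cell membrane these proteins sit in multiprotein complexes. The anion exchanger band 3, encoded by Slc4a1, is the core of a complex that is tied to the spectrin skeleton through ankyrin and protein 4.2. The Rh complex holds the Rh-associated glycoprotein RHAG, the Rh antigen protein, CD47 and the adhesion protein ICAM4. Glycophorin C, from Gypc, binds protein 4.1 and p55 at the actin junctions, where the Kell glycoprotein and its partner XK are also found, and ERMAP carries the Scianna antigens.

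Replicate 1 held 50277914 expected counts and replicate 2 held 47478888. Nuclear protein-coding genes took 14373925 and 13901316 of them. Ribosomal RNA-related loci took 67.2% and 66.3% of the counts. Levels are given as TPM, a deposited measure of transcript abundance that is divided by effective length and is a share of the whole library. Each TPM would be 4.41 times higher in replicate 1 and 4.37 times higher in replicate 2 if only nuclear protein-coding genes were summed. All 10 erythroid markers reached a TPM of 1 in both libraries, with a median of 50.9. Gata1 itself stood at 61.6 ± 5.74 TPM (SD, n = 2), in which the introduced form and any transcript of the disrupted gene cannot be told apart. Among 36 markers of other blood, stromal and endothelial cells 7 reached a TPM of 1 in both libraries and 16 had no read. These 7 were 4 of 8 megakaryocyte markers and 3 of 7 mast cell and basophil markers. Kit (127 TPM), counted there as a mast cell gene, is shared with erythroid progenitors. The other mast cell genes were Cpa3 (27.4 ± 0.912 TPM) and Hdc (1.90 ± 0.0212; SD, n = 2 for each). The megakaryocyte genes were Pf4 (14.8 ± 5.95 TPM), Itga2b (6.35 ± 0.841), Gp1ba (4.12 ± 0.424) and Gp5 (1.99 ± 0.0778; SD, n = 2 for each). The summed TPM of 8 granulocyte and macrophage markers was 0.970 in replicate 1 and 4.93 in replicate 2, that of 8 megakaryocyte markers 32.6 and 24.0, and that of 7 mast cell and basophil markers 157 and 158. It was 0.210 and 0.890 for 7 lymphocyte markers and 0.130 and 0.0500 for 6 stromal and endothelial markers. Of the 8 granulocyte and macrophage markers, Csf1r and Ly6g had no read. The macrophage gene Cd68 had 22 counts in replicate 1 and 53 in replicate 2, the granule genes Mpo 1 and 70 and Elane 0 and 17, and the monocyte gene Ly6c2 0 and 14. The part of such cells in the values below was not tested, and fewer cells carrying a transcript cannot be told apart from less of it per cell.

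For description, the 9 genes are grouped as 4 at a high level, 2 at a middle level and 3 at a low level, with no cut-off set beforehand. Rhag, Cd47, Ermap and Xk together made up 89.9% of the summed TPM of the family in each replicate. Gypc and Kel followed, and Slc4a1, Rhd and Icam4 were lowest. The sum was 318 TPM in replicate 1 and 328 TPM in replicate 2, which was 0.140% and 0.144% of the TPM of all nuclear protein-coding genes. With a threshold of 1 TPM that both libraries had to reach, 8 of the 9 were called detected, against 40.2% of the 21461 nuclear protein-coding genes. The family was chosen for its erythroid role and with levels of these data known, so nothing is read from that difference. The median TPM of the 9 was 18.6 ± 2.06 (SD, n = 2), and that of the nuclear protein-coding genes detected was 9.76 ± 0.170 (SD, n = 2).

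**Figure D1:**
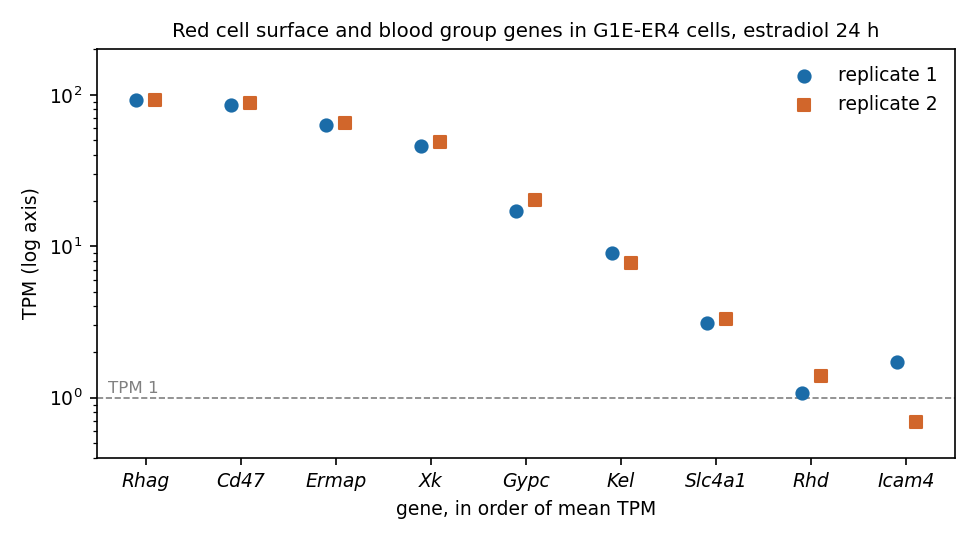
TPM of each of the 9 genes (log axis) in replicate 1 (circles) and replicate 2 (squares), ordered by mean TPM, with a dashed line at a TPM of 1. The values run from 91.94 and 93.1 for Rhag to 1.73 and 0.69 for Icam4, the only gene with a library under the line.

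The Rh complex genes were expressed very unequally. Rhag, whose product is needed in human red cells for the Rh protein to reach the surface and which conducts ammonia and gases, was the highest gene of the family. It lies on chromosome 17 (40811126 to 40840754, plus strand, mm10), and its TPM was 91.94 in replicate 1 and 93.1 in replicate 2, from 6731 and 6467 counts. These values ranked 362nd and 351st among nuclear protein-coding genes. Cd47, the broadly expressed "do not eat me" signal that is read by SIRPα on macrophages, stood at 85.36 and 87.97 TPM (chromosome 16, 49800533 to 49915010, plus strand). Cd47 reached 0.937 ± 0.0116 of the Rhag TPM (SD, n = 2), and the libraries of the 2 genes did not overlap. On counts that are not divided by length the order of the 2 was turned, with 9138 and 8765 counts for Cd47.

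Rhd encodes the mouse Rh antigen protein, the channel-like partner of RHAG, and lies on chromosome 4 (134864536 to 134896172, plus strand). Replicate 1 gave it 1.07 TPM and replicate 2 gave it 1.38 TPM, from 39 and 60 counts. Rhd over Rhag was 0.0116 in replicate 1 and 0.0148 in replicate 2 on TPM, so the Rhag level was 85.9 and 67.5 times as high. Rhag transcripts were thus abundant in both replicates and Rhd transcripts were close to the threshold in both. The interval deposited around the posterior mean TPM of Rhd in replicate 1 ran from 0.718 to 1.59 and includes the threshold of 1. In replicate 1 its coding transcript alone stood at 0.690 TPM. The call of Rhd as detected there thus depends on 0.38 TPM given to an intron-retaining transcript.

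Icam4 encodes the Landsteiner-Wiener adhesion protein, which binds integrins on macrophages and other cells. It lies on chromosome 9 (21029373 to 21030595, plus strand) and its level was 1.73 TPM in replicate 1 but 0.69 TPM in replicate 2. Only 45 and 17 counts stand behind these values. The intervals deposited around the posterior mean TPM, whose level is not given in the sources used here, ran from 1.24 to 2.23 in replicate 1 and from 0.402 to 1.05 in replicate 2 and did not overlap. The TPM of Icam4 was above the threshold of 1 in replicate 1 and below it in replicate 2, where the interval includes 1. The antisense gene Gm47079 (21028307 to 21032357, minus strand, GENCODE M21) spans the whole of Icam4 and has no entry of its own in the tables. No source used here says whether strand was used in counting, so reads of either gene cannot be told apart. Icam4 over Rhag was 0.0188 in replicate 1 and 0.00741 in replicate 2, and Rhd and Icam4 could not be ordered, since their libraries overlapped.

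The stretch just before the start of 4 of these genes is shown because GATA1, the factor restored in these cells, binds GATA motifs. The letters searched were GATA with A or T before it and A or G after it, on both strands, in the 250 bases before each RefSeq start. RefSeq promoter windows (GRCm38.p6, the assembly also called mm10) were matched for 7 of the 9 genes. Slc4a1 and Gypc had no window and were not searched. Of the 7 genes with a window, 5 held at least 1 match, all but Cd47 and Xk. Of the 32851 windows of all genes 26.5% did. Kel held 2 matches, and 6.4% of all windows held 2 or more. In the sequences below, written 5′ to 3′ on the gene's strand, capitals mark the matches. Rhag is at chr17:40810899-40811148 (plus), Rhd at chr4:134864286-134864535 (plus), Kel at chr6:41704326-41704575 (minus) and Ermap at chr4:119189996-119190245 (minus). RefSeq and GENCODE starts differ, and the last bases of the Rhag, Kel, Ermap, Icam4 and Xk windows lie inside the GENCODE gene. The match of Icam4 is in that inside part, and the Cd47 windows lie wholly inside the GENCODE gene.
Rhag: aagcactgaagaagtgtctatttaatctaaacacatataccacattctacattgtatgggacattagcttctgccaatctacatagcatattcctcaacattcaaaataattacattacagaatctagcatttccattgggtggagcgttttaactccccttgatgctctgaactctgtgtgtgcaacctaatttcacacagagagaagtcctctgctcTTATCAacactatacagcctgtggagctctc
Rhd: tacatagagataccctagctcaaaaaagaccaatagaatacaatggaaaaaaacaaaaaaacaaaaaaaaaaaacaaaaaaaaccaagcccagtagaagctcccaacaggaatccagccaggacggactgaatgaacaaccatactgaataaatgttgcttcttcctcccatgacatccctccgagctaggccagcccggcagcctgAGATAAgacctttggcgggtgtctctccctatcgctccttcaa
Kel: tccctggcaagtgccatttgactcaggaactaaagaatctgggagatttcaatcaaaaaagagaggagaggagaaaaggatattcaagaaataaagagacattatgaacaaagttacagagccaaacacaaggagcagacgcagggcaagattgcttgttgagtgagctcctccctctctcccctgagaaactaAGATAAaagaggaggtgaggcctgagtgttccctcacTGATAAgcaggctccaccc
Ermap: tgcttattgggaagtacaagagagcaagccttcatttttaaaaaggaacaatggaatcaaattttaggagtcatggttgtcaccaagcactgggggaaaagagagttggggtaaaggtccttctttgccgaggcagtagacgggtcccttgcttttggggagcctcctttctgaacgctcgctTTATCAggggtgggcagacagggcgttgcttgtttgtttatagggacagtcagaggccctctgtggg

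Counted from the RefSeq start, the first letter of the match lay at -31 in Rhag, -43 in Rhd and -67 in Ermap, and the 2 matches of Kel began at -56 and -19. Rhag and Rhd, the highest gene and one of the lowest, both held 1 match. The windows of Cd47 and Xk, without a match, had a GC content of 73.2% (74.4% in a second Cd47 window) and 77.2%, and the window of Rhag had 39.2%. CACCC letters, the core of the sites that KLF1 binds, were searched on both strands and stood in all 7 windows, against 52.0% of all windows. A match of letters is a description and not a site of binding, and no binding was measured.

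Slc4a1, by protein the main membrane protein of the mature red cell, was low. The gene (chromosome 11, 102348824 to 102366203, minus strand) was measured at 3.10 TPM in replicate 1 and 3.32 TPM in replicate 2, from 453 and 460 counts. It ranked 7279th and 7199th among nuclear protein-coding genes. All of its counts were given to its coding transcript of 4545 nt, and the other 4 listed transcripts, none of them coding, had no read. Slc4a1 reached 0.0347 ± 0.00137 of the Rhag TPM (SD, n = 2), and 0.0692 of Rhag on counts not divided by length. Its broadly expressed relative Slc4a2 had 3.94 TPM in replicate 1 and 5.18 TPM in replicate 2, so that the erythroid exchanger stood at 0.787 and 0.641 of it. On counts not divided by length, Slc4a1 over Slc4a2 was 1.86.

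Gypc (chromosome 18, 32528322 to 32560034, minus strand) encodes glycophorin C, the carrier of the human Gerbich antigens. Its TPM was 17.14 in replicate 1 and 20.05 in replicate 2, from 1150 and 1244 counts. Gypc over Slc4a1 was 5.53 in replicate 1 and 6.04 in replicate 2 on TPM, and 2.62 on counts not divided by length. Gypc transcripts were thus at a higher TPM than those of the band 3 protein in both libraries.

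The Kell and XK proteins are joined by a disulfide bond, and in humans loss of XK weakens Kell antigens. Xk, a multispan protein that works with the lipid transfer protein VPS13A in lipid scrambling, was measured at 45.66 TPM in replicate 1 and 48.76 TPM in replicate 2 (X chromosome, 9272756 to 9313250, plus strand). These came from 7464 and 7571 counts on the only listed transcript. Kel, a zinc endopeptidase, was at 9.03 TPM in replicate 1 and 7.78 TPM in replicate 2, from 506 and 357 counts (chromosome 6, 41686330 to 41704339, minus strand). Kel over Xk was 0.198 in replicate 1 and 0.160 in replicate 2. The genes of the disulfide-linked partners therefore had TPM levels 5.06-fold apart in replicate 1 and 6.27-fold apart in replicate 2, with Xk the higher. Coding transcripts of Kel summed to only 6.88 TPM in replicate 1 and 5.08 TPM in replicate 2. All Xk TPM was on a coding transcript, so the gap between coding transcripts was wider. Gm37527 lies inside a single intron of Kel on the same strand (41692640 to 41696186) and had 242 and 211 counts of its own. The histone gene H2al1m lies inside an intron of Xk and had 0 and 3.27 counts.

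Ermap, an immunoglobulin superfamily protein related to the butyrophilins, was at 62.76 TPM in replicate 1 and 65.45 TPM in replicate 2. It rested on 8050 and 7787 counts (chromosome 4, 119175457 to 119190011, minus strand). Ermap was at 0.693 ± 0.0144 of the Rhag TPM (SD, n = 2) and above Xk in both libraries. Its place above Xk depends on transcripts not annotated as coding. Coding transcripts alone gave Ermap 39.4 TPM in replicate 1 and 37.6 TPM in replicate 2, below Xk in both. On counts not divided by length Ermap over Rhag was 1.20, which turns the order of the 2.

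The order by mean TPM was Rhag, Cd47, Ermap, Xk, Gypc, Kel, Slc4a1, Rhd and Icam4. In 7 of the 8 pairs of neighbours the lower library of the higher gene lay above the higher library of the lower gene. The exception was Rhd and Icam4, whose order also differed between the replicates.

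The replicates were close for the well-counted genes. The log2 ratio of TPM with 0.1 added, replicate 2 over replicate 1, was 0.02 for Rhag, 0.04 for Cd47, 0.06 for Ermap and 0.09 for Xk. It was 0.10 for Slc4a1, 0.23 for Gypc and -0.21 for Kel. Rhd, with 49.5 counts on average, had 0.34. Icam4 had -1.21 with 31.0 counts on average and was the only 1 of the 9 that differed 2-fold or more, against 1.95% of the 8808 nuclear protein-coding genes whose mean TPM reached 1. With 1 added in place of 0.1 its log2 ratio was -0.69 and none of the 9 differed 2-fold. Among the 216 of these genes with 20 to 60 counts on average, 25.9% differed as much.

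**Figure D2:**
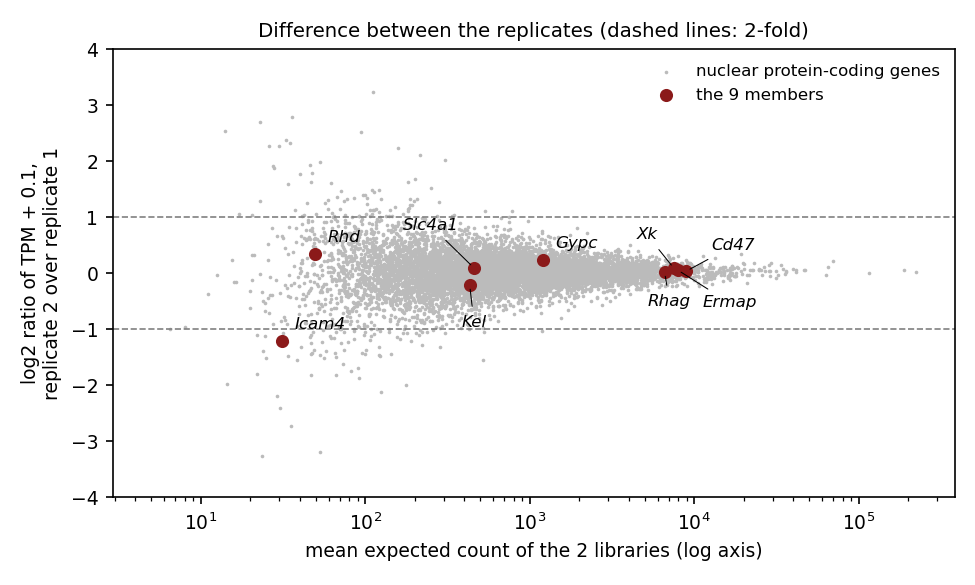
Log2 ratio of TPM + 0.1, replicate 2 over replicate 1, against the mean expected count (log axis) for nuclear protein-coding genes of mean TPM 1 or more (grey) and the 9 genes (red), with dashed lines at 2-fold. Icam4, at -1.21 and 31.0 counts, lies outside the lines and the other 8 genes lie between them.

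Transcript estimates were made on the GENCODE M4 models, and their names and types here come from M21. Of the 29 transcripts, 22 had reads in at least 1 library and 19 in both. Rhag, Xk and Icam4 have 1 listed transcript each. Of the 5 listed for Slc4a1 only 1 had reads, so no other could lead in these genes. Ermap, Cd47, Gypc, Kel and Rhd each had the same leading transcript in both replicates, but the strength of the lead differed. These counts were not set beside their share over all listed genes or transcripts, so nothing is read from them.

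Ermap reads were divided mainly between a coding transcript and one annotated for nonsense-mediated decay, the pathway that removes mRNAs with an early stop codon. Ermap-206, with a coding sequence of 1776 nt, held 57.1% of the Ermap TPM in replicate 1 and 52.5% in replicate 2. Ermap-201, whose reading frame ends after 1002 nt, held 27.4% in replicate 1 and 30.4% in replicate 2. All transcripts of the decay type together held 32.3% and 38.9%, and the intron-retaining Ermap-203 held 4.93% and 3.75%. Coding transcripts summed to 39.4 TPM of 62.76 in replicate 1 and 37.6 TPM of 65.45 in replicate 2.

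Among their short exons, Ermap-206 and Ermap-201 differ only by 4 nt at the end of exon 7. Their longer exons were not compared, and the whole transcripts are 4551 nt and 4378 nt long. The exon is 33 nt long in Ermap-206 (chr4:119183306-119183338, minus strand) and 29 nt long in Ermap-201 (chr4:119183310-119183338). The length of 33 nt keeps the reading frame and that of 29 nt does not. The spliced sequences around exon 7 are shown because these 4 nt set whether its length keeps the reading frame. Each runs from the last 30 nt of exon 6 through exon 7 into the first 30 nt of exon 8, and capitals mark the 4 nt that only Ermap-206 has.
Ermap-206: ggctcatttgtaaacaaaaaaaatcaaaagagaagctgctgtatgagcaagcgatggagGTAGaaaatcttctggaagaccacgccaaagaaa
Ermap-201: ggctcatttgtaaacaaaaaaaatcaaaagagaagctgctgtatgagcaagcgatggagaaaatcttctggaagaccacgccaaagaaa

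The deposited intervals of Ermap-206 ran from 30.7 to 39.2 TPM in replicate 1 and from 30.4 to 36.8 TPM in replicate 2. Those of Ermap-201 ran from 12.7 to 21.4 TPM and from 16.0 to 22.4 TPM. The intervals of the 2 transcripts did not overlap in either library, and Ermap-206 was the higher in both.

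**Figure D3:**
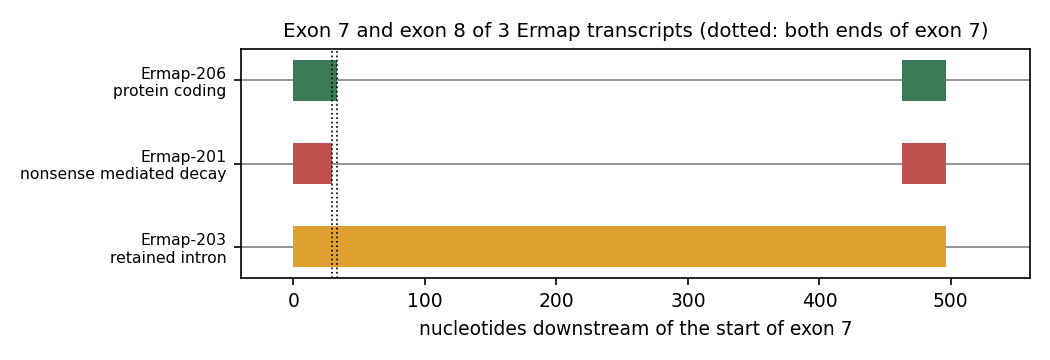
Exons 7 and 8 of Ermap-206, Ermap-201 and Ermap-203 in nucleotides from the start of exon 7, drawn along the direction of transcription from GENCODE M21. Exon 7 ends at 33 nt in Ermap-206 and at 29 nt in Ermap-201 (dotted lines), and Ermap-203 keeps the intron.

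The glycophorin C transcripts divided differently in the 2 libraries. Gypc-203 includes a 51 nt exon (chr18:32532734-32532784) that Gypc-202 skips, a difference of 17 codons that keeps the frame. Gypc-203 held 75.7% of the Gypc TPM in replicate 1 and 50.2% in replicate 2. Gypc-202 held 24.3% in replicate 1 and 48.2% in replicate 2, with 268 and 590 counts. Its deposited intervals, from 1.89 to 6.73 TPM in replicate 1 and from 7.17 to 11.4 TPM in replicate 2, did not overlap. Those of Gypc-203, from 10.1 to 14.9 TPM and from 7.95 to 11.9 TPM, did. These intervals describe each library alone and not the spread between replicates, and none was deposited for the shares.

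The long transcript of Cd47 (5277 nt) held 56.6% of the TPM in replicate 1 and 55.2% in replicate 2. The short one (867 nt as quantified, 1175 nt in M21) held the rest. Alone, the long transcript stood at 48.35 TPM in replicate 1 and 48.56 TPM in replicate 2. Ermap as a whole had 62.76 and 65.45 TPM. The place of Cd47 above Ermap on TPM thus depends on the short transcript. Before division by length the long transcript took 90.0% and 89.5% of the Cd47 counts. M21 lists 10 Cd47 transcripts, and the tables list 2, so the alternative cytoplasmic tails for which CD47 is known were not resolved. Kel-201, the full-length transcript of Kel, held 63.8% and 53.1% of the Kel TPM but 90.6% and 87.3% of its counts. The short Kel transcripts had 27.2 counts or fewer each. For Rhd the coding transcript Rhd-201 had 31.6 counts in replicate 1 and 60 in replicate 2, which is 0.690 and 1.38 TPM. The rest of the Rhd TPM in replicate 1 belonged to the intron-retaining Rhd-202, with 7.37 counts.

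**Figure D4:**
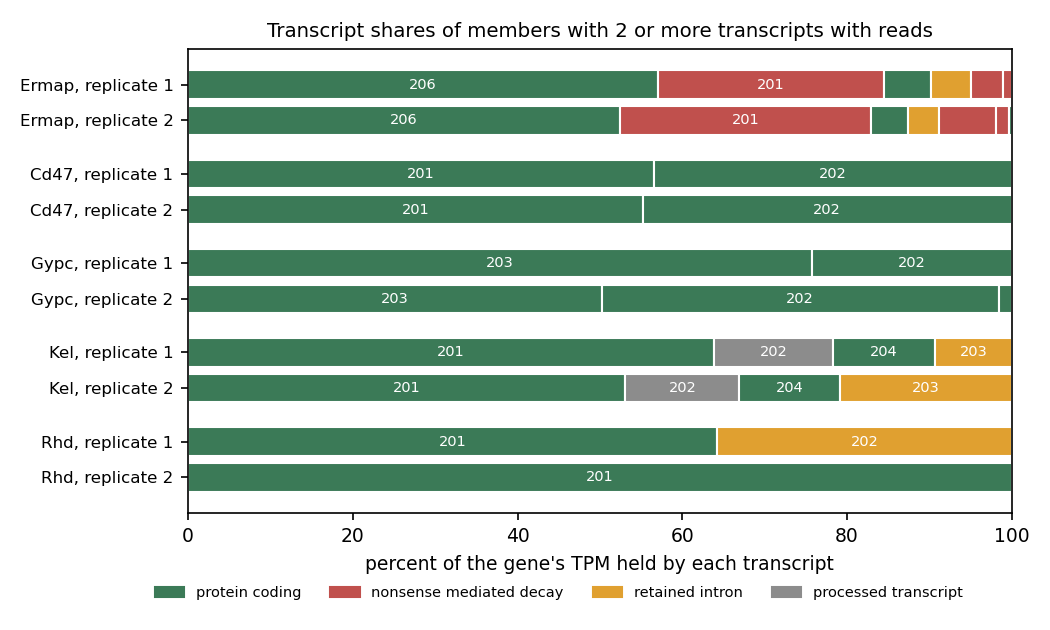
Percent of gene TPM held by each transcript of Ermap, Cd47, Gypc, Kel and Rhd in replicates 1 and 2, coloured by M21 transcript type, with the transcript number written in the wider segments. The Rhd bars differ most between replicates, with Rhd-201 at 64.2% and 100%, followed by the Gypc bars, with Gypc-203 at 75.7% and 50.2%.

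Other genes of the red cell surface were described for context, from lists drawn up with earlier results of these data known. Of 26 other carriers of blood group antigens or channels of this membrane, 18 reached a TPM of 1 in both libraries, and their median of 9.0 TPM stood beside 18.6 TPM for the 9 genes. The highest were Bsg, the Ok antigen carrier basigin (189 ± 2.07 TPM), the complement regulator Cd55 (66.8 ± 0.438), the prion protein gene Prnp (43.3 ± 3.58) and the Junior antigen transporter Abcg2 (34.3 ± 2.93; SD, n = 2 for each). Bsg was thus above Rhag. The Duffy receptor gene Ackr1, the water channel gene Aqp1, the Lutheran gene Bcam and Sema7a had no read, and the Kidd urea transporter gene Slc14a1 had 0 and 3 counts.

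Of 10 genes that anchor the surface proteins to the skeleton, 9 reached the threshold. Protein 4.1 (Epb41), the partner of glycophorin C, stood at 64.6 ± 5.68 TPM, the spectrin gene Sptb at 38.2 ± 1.32, the ankyrin gene Ank1 at 34.2 ± 2.87 and the adducin gene Add1 at 32.3 ± 0.629 (SD, n = 2 for each). The lowest were Epb42, the protein 4.2 that binds band 3, with 1.52 and 2.00 TPM, and Dmtn with 0.83 and 1.26 TPM. Within the band 3 complex, Slc4a1 and Epb42 were therefore low while Ank1 was not.

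Of 17 genes related to the members in sequence or family, 7 reached the threshold and none reached a TPM of 5 in both libraries. The butyrophilin gene Btn1a1 (5.34 ± 0.905 TPM), Slc4a7 (4.75 ± 0.141), Slc4a2 (4.56 ± 0.877) and Xkr6 (3.10 ± 0.969) led (SD, n = 2 for each). The non-erythroid Rh glycoprotein genes Rhbg and Rhcg had no read, as had Slc4a3, Slc4a4, Mme and Xkr4. Rhag was thus the only Rh glycoprotein gene of the 3 with reads. Sdc1, also in that list without a known kinship to a member, had 0 and 3 counts.

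Of 9 partner and ligand genes, 6 reached the threshold. The carbonic anhydrase genes Car2 (414 ± 12.2 TPM) and Car1 (254 ± 7.42) were highest, followed by the integrin chains Itga4 (65.5 ± 1.77) and Itgb1 (52.5 ± 3.08; SD, n = 2 for each). Carbonic anhydrase II supplies the bicarbonate that band 3 exchanges. Vps13a, the XK partner, had 13.05 and 13.03 TPM. The CD47 receptor gene Sirpa had 0 and 1 counts, and Thbs1, for its ligand thrombospondin, had none. Ica1, put in the list without a known tie to these proteins, had 2.87 and 0.97 TPM.

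The 7 glycosyltransferase genes that make carbohydrate blood group antigens (Abo, Fut1, Fut2, A4galt, Gbgt1, Gcnt2 and B3galnt1) had no read in either library. Taking 3 counts as the limit that 0 allows, the level of each could still be up to a TPM of between 0.0221 and 0.101 in replicate 1 and between 0.0233 and 0.107 in replicate 2. These limits cover counting error only.

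**Figure D5:**
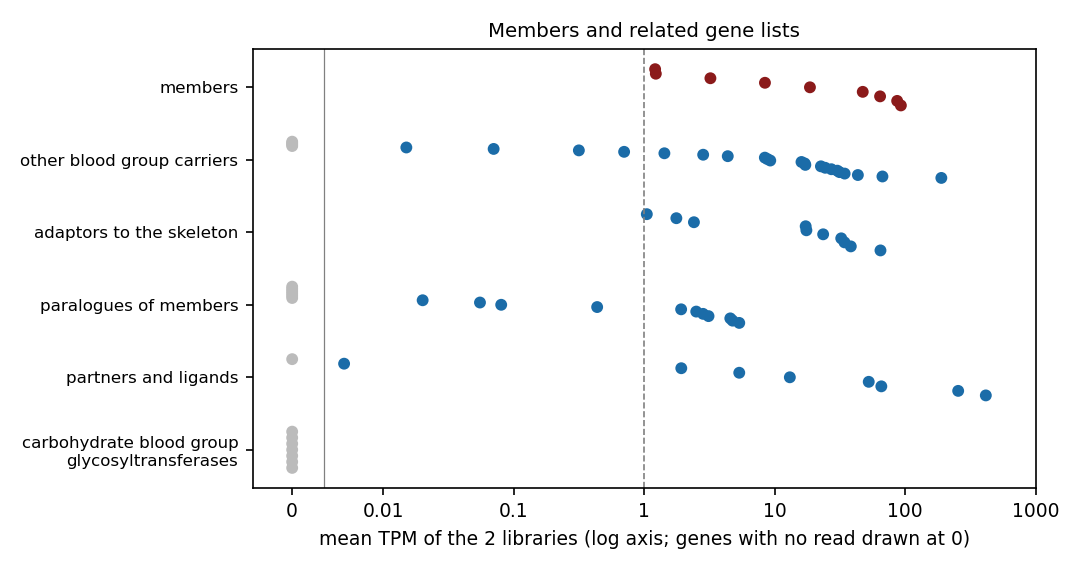
Mean TPM of the 2 libraries (log axis, genes with no read drawn at 0) for the 9 genes (red) and 5 related lists (blue, grey where no read), with a dashed line at a TPM of 1. The 9 genes all lie above a mean of 1, while all 7 carbohydrate glycosyltransferase genes lie at 0.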

How the data were processed

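Total RNA libraries of 2 replicates, labelled biological, were used as deposited, each with 1 gene and 1 transcript table. The labels give mm10 as assembly, and the deposited documentation names GENCODE M4. No source used here names the aligner, the quantifier or a strand setting. The deposited tables hold the authors' expected counts, which carry no normalization. The deposited TPM is scaled to a fixed sum over all listed features, and the deposited FPKM by effective length and depth. Each transcript's part of its gene is a deposited percent. The posterior mean TPM and interval bounds deposited by the authors were handled as signal values.

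Genes were named by identifier without version from GENCODE M21 (mm10), and Car1 and Car2 were found through RefSeq synonyms. Members and lists were chosen with earlier results of these data known. Named genes were all members, and up to 4 highest and 2 lowest of each list, with genes without reads named in addition. Beyond these, Vps13a, Sdc1, Ica1, Gata1, Kit, Cpa3, Hdc, Pf4, Itga2b, Gp1ba, Gp5, Csf1r, Ly6g, Cd68, Mpo, Elane, Ly6c2 and overlapping genes were named after their values were seen. Means and SDs are over 2 libraries; there was no contrast and no test. Scale factors for alternatives came from edgeR 4.0.16 and DESeq2 1.42.0 (R 4.3.3) on expected counts rounded to whole numbers, for genes with 10 or more in both libraries, after a check on simulated data. Python 3.11.15, pandas 2.3.3, numpy 2.4.6 and matplotlib 3.10.9 did the rest.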

Additional observations from a re-analysis of the deposited data

How the results depend on the processing

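The count of 8 detected genes was 9 at a TPM threshold of 0.5, 6 at a threshold of 5, 9 when TPM was rescaled to the nuclear protein-coding sum, 8 in replicate 2 alone and 9 in replicate 1 alone. The order of the 9 genes was the same on posterior mean TPM, FPKM and counts per kilobase of full length. Posterior mean TPM gave Slc4a1 3.83 against 3.21 on TPM, Rhag 90.2 against 92.5 and Cd47 84.6 against 86.7. With it Slc4a1 over Rhag was 0.0424 against 0.0347, and Gypc over Slc4a1 was 4.78 against 5.78. These differences were larger than the SD of the 2 replicates. On counts not divided by length only 3 genes kept their place, Rhd over Rhag was 0.00754, Icam4 over Rhag was 0.00466, Kel over Xk was 0.0575 and Ermap-201 held 32.0% of Ermap; these counts weight long transcripts by construction. The 2-fold difference of Icam4 depended on the pseudocount: with 1 in place of 0.1 its log2 ratio was -0.69 and 0 genes differed 2-fold, as also among genes of mean TPM 5 or more, which leaves Icam4 out. With expected counts scaled by edgeR TMM or DESeq2 size factors, the log2 ratios were -0.01 for Rhag and -0.02 for Cd47, against 0.02 and 0.04 on TPM; that of Kel was -0.46 against -0.21 and that of Rhd 0.66 against 0.34. Depth limits Rhd (39 and 60 counts) and Icam4 (45 and 17). No paired analysis was possible because there is 1 group.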
